A study of Mus musculus with 12 samples.

Results

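Beige adipocytes labelled as lacking the transcription factor ATF7 (ATF7KO, called KO-labelled below) were compared with wild-type (WT) beige adipocytes, 4 of the 12 libraries in the series. They were the 2 libraries titled ATF7KO-beige and the 2 titled WT-beige. All 4 came from preadipocytes of the inguinal white fat of C57BL/6 mice that were differentiated in culture with rosiglitazone, an agonist of the nuclear receptor PPARγ, so the agent was shared by both genotypes. The 4 white libraries of the same 2 genotypes, differentiated without rosiglitazone, were used to estimate spread and for 1 comparison. The labels do not describe the knockout allele, the age or sex of the mice, or whether replicates were separate animals or cultures, so p-values measure no more than the spread between replicates of these 8 beige and white samples, and that spread may be technical.

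ATF7 belongs to the ATF2 family of bZIP transcription factors, which bind cAMP response elements and are phosphorylated by stress-activated kinases. It is known to recruit histone H3K9 methyltransferases to promoters and to keep innate immune genes low in macrophages until stress releases it. Beige adipocytes are cells of white fat depots that make heat, mainly through the uncoupling protein UCP1 and a large mitochondrial mass. PPARγ agonists induce this state in culture.

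Expression was given as FPKM, that is fragments scaled for transcript length and sequencing depth. Between 9892 and 9983 of 24888 entries (a symbol at a locus) reached 1 FPKM in each beige library, and small RNA genes took 23.9% to 25.04% of the summed FPKM. Read totals were not in the values used, so no counting interval can be given. The lowest values of the 2 KO-labelled libraries fell in steps that put their depth at 0.818 to 0.871 of that of the WT libraries, a rough estimate. Replicates correlated across entries at a Pearson's r of 0.985 in WT and 0.982 in KO-labelled beige libraries, and entries are not independent replicates. In KO-labelled cultures 6880 of 10071 tested entries were higher in replicate 2 than in replicate 1.

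The beige label was borne out by the marker genes in all 4 libraries. Cidea and Cox8b stood at 52.3 FPKM or more in every beige library, and Ucp1 stood between 17.2 and 51.6 FPKM against 0 in the 4 white ones. The adipocyte genes Adipoq (424 to 518 FPKM) and Fabp4 (8602 to 9585 FPKM) were high in both genotypes, while leptin (Lep) was at 0.0757 FPKM or less. Defining markers of lymphoid cells (Cd3e, Ncr1), of skeletal muscle (Myod1, Myog) and of keratinocytes (Krt14) were at 0 in all 4. Other listed muscle markers were not all at 0. The 11 summed to 1.93 and 2.64 FPKM in WT against 3.08 and 3.43 FPKM in KO-labelled libraries, with 10 of them below 1 FPKM in each.

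The targeted gene did not separate the genotypes. Atf7 (chromosome 15, 102525946 to 102625464, mm10) was at 7.80 and 7.83 FPKM in WT against 7.26 and 7.94 FPKM in KO-labelled beige libraries, and these ranges overlapped. Its log2 difference was −0.04 ± 0.12 (SE; 2 libraries per genotype in this and all later values; limma adjusted p = 0.938). A gene-level value holds no record of the exons behind it, so the genotype is left to the labels, and every direction below rests on them. Of the other 18 tested members of the list of ATF2 and CREB relatives and AP-1 partners, 0 were called, where called means an adjusted p under 0.05 over all 10071 entries tested. Atf2, the closest relative, was at 13.9 and 14.6 FPKM in WT against 17.8 and 22.6 FPKM in KO-labelled libraries (0.47 ± 0.12, limma adjusted p = 0.259). The stress-induced factor Atf3 was at 7.38 and 6.02 against 8.99 and 9.79 FPKM, and Atf6, the sensor of endoplasmic reticulum stress, at 13.1 and 12.7 against 15.96 and 18.4 FPKM. For all 3 the KO-labelled libraries lay above both WT libraries, and none passed the test. The list as a whole, Atf7 included, had 9 of 19 members above 0 and a median log2 difference of −0.0091. Both KO-labelled libraries lay above both WT libraries in 7 of the 19 (36.8%, against 28.7% of all entries). The H3K9 methyltransferases G9a (Ehmt2, 14.8 and 14.4 against 12.6 and 14.5 FPKM) and GLP (Ehmt1, 5.64 and 5.84 against 5.25 and 6.65 FPKM) overlapped between genotypes, and the list of H3K9 methylation enzymes and partners had 0 of 19 members called.

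Few entries were called between the genotypes, and with 2 libraries per genotype an entry that was not called may still differ. At an adjusted p under 0.05, limma called 19 of 10071 entries (0.189%), of which 8 were higher (0.0794%) and 11 lower (0.109%) in KO-labelled libraries. Of these, 12 had values above 0 in both genotypes, and 7 were listed at exactly 0 in both libraries of 1 genotype and are described apart. Those 7 and Cntfr entered the test through the genotype in which they were high, since the other genotype was below the filter of 1 FPKM, so their calls follow in part from the filter. At an unadjusted p under 0.05 there were 1112 entries (11%). The differences as a whole leaned upward: 63.0% of entries had a log2 difference above 0 with a median of 0.0495, and both KO-labelled libraries lay above both WT libraries in 28.7% of entries and below both in 13.4%. After median centring or quantile normalization the median of all entries was 0.0016 or 0.0070.

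The largest rise among entries above 0 in both genotypes was that of Cyp4b1, a cytochrome P450 that hydroxylates fatty acids. It was at 10.7 and 14.2 FPKM in WT against 37.8 and 76.7 FPKM in KO-labelled libraries (2.04 ± 0.27, limma adjusted p = 0.0256). The genotypes were well apart, although the KO-labelled replicates also differed from each other. Cntfr, the receptor subunit for ciliary neurotrophic factor, was low in every library, at 0.240 and 0.206 FPKM in WT against 1.21 and 1.81 FPKM in KO-labelled cultures (1.03 ± 0.15, limma adjusted p = 0.0418), and it was not tested under a filter on the mean. Nrp2, a coreceptor for semaphorins and VEGF, rose from 7.50 and 8.05 to 12.1 and 12.9 FPKM (0.63 ± 0.09, limma adjusted p = 0.046). Cidea, a protein on the lipid droplets of thermogenic fat, is the fourth and is given with the thermogenic genes.

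Among the falls, Lars2, which charges mitochondrial leucine tRNA, moved most, from 54.7 and 48.0 FPKM in WT to 14.5 and 15.6 FPKM (−1.70 ± 0.13, limma adjusted p = 0.000876). Lars2 was the only 1 of 17 tested mitochondrial aminoacyl-tRNA synthetases called, against 0.109% of all entries called lower. The median difference of that list was 0.00093. Some mouse annotations of Lars2 include sequence that resembles ribosomal RNA, so reads from residual rRNA can be counted there. The rRNA precursor entry Rn45s was at 5222 and 4962 FPKM in WT against 4133 and 4674 FPKM in KO-labelled libraries, lower in both but by far less (−0.21 ± 0.16). The part of rRNA reads in the Lars2 value was not tested.

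The other falls were in genes of varied function. Sbsn, a secreted protein of stratified epithelia, went from 26.2 and 22.6 to 9.97 and 9.76 FPKM (−1.22 ± 0.16, limma adjusted p = 0.0214), while the keratins Krt14 and Krt8 were at 0 in all 4 libraries. The 12 epithelial and mammary markers, of which Sbsn is 1, summed to 35.9 and 31.6 FPKM in WT against 20.7 and 14.9 FPKM in KO-labelled libraries, and without Sbsn to 9.70 and 8.92 against 10.7 and 5.18 FPKM, which overlapped. Rasd1, a dexamethasone-induced small GTPase, went from 12.5 and 9.31 to 4.76 and 4.17 FPKM (−1.11 ± 0.14). Adh1, an alcohol dehydrogenase that also oxidizes retinol, went from 66.6 and 56.7 to 32.7 and 30.0 FPKM (−0.95 ± 0.13). In all 3 the 2 KO-labelled replicates lay close together and well below both WT replicates. Mgp, a matrix protein that inhibits calcification, fell from 6.17 and 6.21 to 3.15 and 3.41 FPKM, B3galt2, a galactosyltransferase, from 6.10 and 5.86 to 3.14 and 3.18 FPKM, and the noncoding RNA Snhg11 from 4.46 and 3.86 to 2.05 and 1.96 FPKM. Their log2 differences were −0.75 ± 0.10, −0.74 ± 0.09 and −0.78 ± 0.10, with limma adjusted p from 0.0124 to 0.0256. The last, A530016L24Rik, a predicted coding gene outside the naming rule and named after its values were seen, was at 16.04 and 15.5 against 9.66 and 7.69 FPKM (limma adjusted p = 0.0497).

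**Figure D1:**
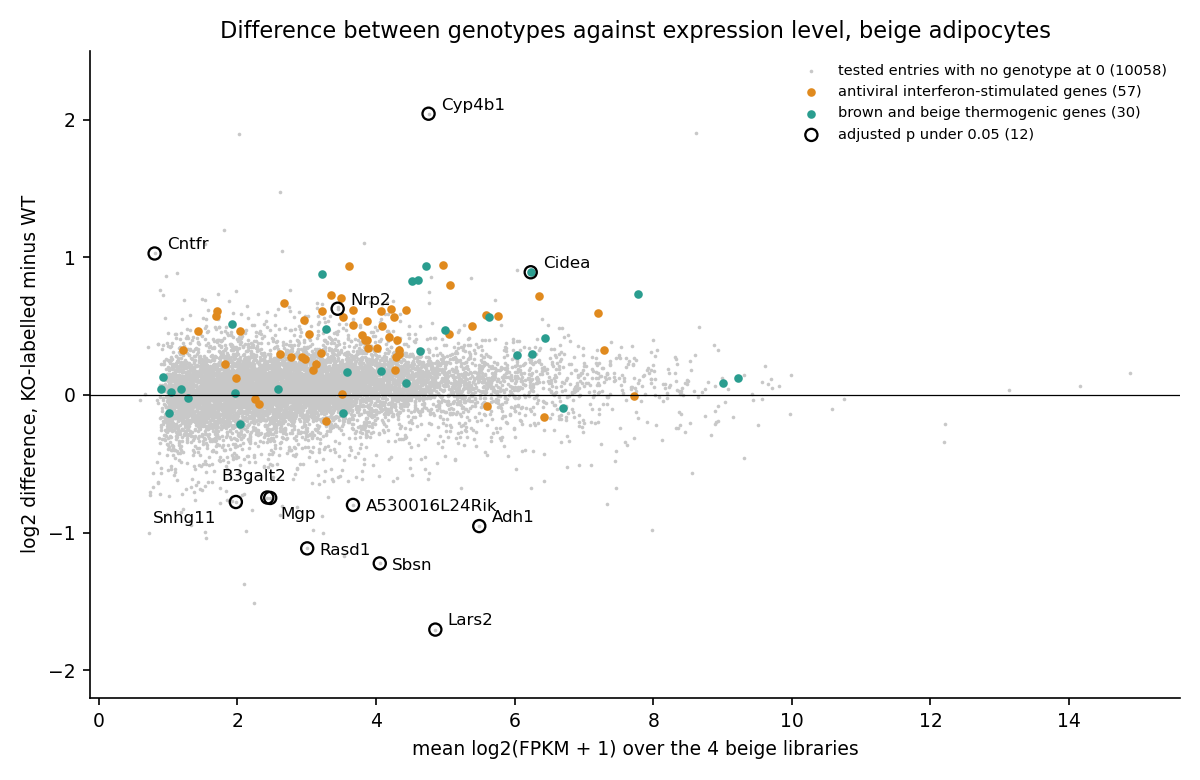
Log2 difference between KO-labelled and WT beige libraries (y) against the mean log2(FPKM + 1) of the 4 libraries (x), 1 point per tested entry with no genotype at 0. Circled points are the 12 called entries, 4 above 0 and 8 below; the orange interferon-stimulated genes lie mostly above 0 without any being circled, and the green thermogenic genes reach from near 0 to Cidea and Ucp1.

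These calls rested on few libraries. Of the 12 entries, 1 (Lars2) was still called without WT beige replicate 1, 2 without WT beige replicate 2, 5 without KO-labelled replicate 1 and 3 without KO-labelled replicate 2, and 2 when the 4 beige libraries were fitted alone. Of the other 10 named genes, Cyp4b1 was called without either KO-labelled replicate (2.54 and 1.54) and not without WT replicate 1 or 2 (1.86 and 2.23; limma adjusted p = 0.285 and 0.0619). Rasd1 was called without WT replicate 2 alone, Cntfr and B3galt2 without KO-labelled replicate 1 alone, and Cidea without KO-labelled replicate 2 alone. Sbsn, Adh1, Snhg11, Mgp and Nrp2 lost their call without each of the 4, with limma adjusted p from 0.0529 to 0.64.

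Interferons are cytokines of antiviral defence that act through JAK kinases and a complex that holds STAT2 and IRF9, which binds a promoter element called the ISRE. Promoters of 4 genes of this response are shown because the interferon genes were the group that lay highest in KO-labelled cultures and because ATF7 itself binds another element, the CRE. The sequences are the 150 bases before the start site, read 5′ to 3′ on the gene's strand from RefSeq (GRCm38.p6), with each match of the ISRE core GAAANNGAA, on either strand and overlapping matches included, in capitals. They are Rsad2 (chr12:26456453-26456602, minus strand), Isg15 (chr4:156200819-156200968, minus strand), Ifit1 (chr19:34640739-34640888, plus strand) and Gbp2 (chr3:142620513-142620662, plus strand).
Rsad2: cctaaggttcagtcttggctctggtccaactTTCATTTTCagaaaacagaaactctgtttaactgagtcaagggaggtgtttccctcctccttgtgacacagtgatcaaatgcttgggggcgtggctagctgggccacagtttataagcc
Isg15: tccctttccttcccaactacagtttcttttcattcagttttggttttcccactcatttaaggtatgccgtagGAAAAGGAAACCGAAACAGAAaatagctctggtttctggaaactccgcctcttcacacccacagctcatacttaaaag
Ifit1: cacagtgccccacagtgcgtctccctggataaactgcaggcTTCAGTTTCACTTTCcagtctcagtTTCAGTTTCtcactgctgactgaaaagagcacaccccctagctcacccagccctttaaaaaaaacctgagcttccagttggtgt
Gbp2: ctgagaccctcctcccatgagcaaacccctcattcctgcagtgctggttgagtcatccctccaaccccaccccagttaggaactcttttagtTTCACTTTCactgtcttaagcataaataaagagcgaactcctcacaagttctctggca

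Isg15 and Ifit1 each held 3 matches, some of them overlapping, and Rsad2 and Gbp2 held 1 each. Over windows from 250 bases before to 50 after the start, 19 of 43 antiviral interferon-stimulated genes with a promoter in the table held the core (44.2%), as did 7 of 8 interferon-induced GTPases (87.5%) and 10 of 14 nucleic acid sensors (71.4%), against 2638 of 27025 genes (9.76%). The CRE, TGACGTCA, which reads the same on both strands, was in 0 of these 43, 8 and 14 promoters and in 549 of all 27025 (2.03%). Among antiviral genes the median log2 difference was 0.47 for the 19 with the core and 0.37 for the 24 without it, and both sets ranged from below 0 to 0.797 or more. A match is a match of letters and does not show that a factor was bound.

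Interferon-stimulated genes were higher in KO-labelled cultures as a list, while 0 of them passed the test alone. Of 57 tested antiviral members, 51 had a difference above 0, and both KO-labelled libraries lay above both WT libraries in 47 (82.5%, against 28.7% of all entries) and below both in 1. Their median log2 difference was 0.43, against 0.0495 over all entries. Rsad2, the antiviral enzyme viperin, was among the highest of them.

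Effectors that act on viral RNA or protein showed the pattern gene by gene. Isg15, a ubiquitin-like modifier, was at 51.8 and 76.0 FPKM in WT against 95.1 and 114 FPKM in KO-labelled libraries (0.72 ± 0.27, limma adjusted p = 0.388). Ifit1, which binds foreign RNA ends, was at 32.8 and 44.7 against 61.4 and 54.5 FPKM (0.58 ± 0.20). Usp18, the protease that removes ISG15, was at 14.4 and 18.9 against 25.3 and 26.3 FPKM (0.62 ± 0.17). In each, the 2 KO-labelled values lay above the WT values, and WT replicate 2 lay between WT replicate 1 and the KO-labelled ones. Lower-level effectors had the same order: Mx1, a GTPase against influenza-like viruses, was at 1.53 and 1.75 against 2.79 and 3.07 FPKM, and Parp12 at 9.68 and 12.8 against 17.6 and 15.7 FPKM. Ifi44 was at 5.56 and 10.8 against 16.4 and 15.4 FPKM. The nuclear body protein Sp100 was at 4.86 and 6.07 against 7.96 and 8.87 FPKM. None of these 7 was called.

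Interferon-induced GTPases attack membranes around intracellular pathogens. All 14 tested members had a difference above 0 (median 0.57), and in 12 the genotypes did not overlap with KO-labelled libraries higher, as they did in 28.7% of all entries. Gbp2, a guanylate-binding protein, was at 10.7 and 14.5 against 20.9 and 19.7 FPKM (0.66 ± 0.16, limma adjusted p = 0.22). Gbp7 was at 5.52 and 7.60 against 9.43 and 10.2 FPKM. Irgm2, a regulatory member of the immunity-related GTPases, was at 13.7 and 18.4 against 22.9 and 24.1 FPKM. Summed over all 21 listed GTPases, the level was 113 and 155 FPKM in WT against 217 and 207 FPKM in KO-labelled beige libraries, so the sum did not overlap either.

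The signalling genes upstream differed less. Of 21 tested interferon ligands, receptors and signalling genes, 19 lay above 0 with a median of 0.16, and 0 were called. Stat2 was at 14.8 and 19.3 against 21.8 and 21.1 FPKM (0.33 ± 0.17) and Irf9 at 10.6 and 12.4 against 15.9 and 14.8 FPKM (0.40 ± 0.14). Irf7, the factor that amplifies type I interferon, was at 20.1 and 29.4 against 45.4 and 40.6 FPKM (0.80 ± 0.29, limma adjusted p = 0.386). Nmi, a STAT-interacting protein, was at 2.46 and 2.57 against 4.23 and 4.75 FPKM (0.64 ± 0.13), with its WT replicates close together. Of 20 tested nucleic acid sensors and adaptors, 17 lay above 0 (median 0.40). Eif2ak2, the RNA-activated kinase PKR, was at 10.6 and 14.5 against 17.9 and 17.7 FPKM, and Ifi203, of the DNA-sensing HIN family, at 5.41 and 7.44 against 10.6 and 9.35 FPKM.

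Antigen presentation followed with smaller differences: 21 of 23 tested MHC class I and immunoproteasome genes lay above 0 (median 0.26), none called. Erap1, which trims peptides in the endoplasmic reticulum, was at 3.25 and 4.33 against 5.96 and 6.26 FPKM (0.58 ± 0.12, limma adjusted p = 0.162). Psmb9, an immunoproteasome subunit, was at 5.73 and 7.68 against 9.32 and 9.82 FPKM. The class I gene H2-T22 was at 2.04 and 5.23 against 7.99 and 7.92 FPKM, and near-identical MHC genes may share reads, so its value is uncertain. B2m, the invariant light chain, was at 280 and 308 against 368 and 336 FPKM. Cxcl9, a chemokine of the interferon-γ response, was low in all 4, at 0.577 and 1.15 against 2.46 and 1.56 FPKM.

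The WT replicates differed in the same genes. WT replicate 2 was above WT replicate 1 in 51 of 57 antiviral genes, 14 of 14 GTPases and 18 of 20 sensors, against 4674 of all 10071 entries. The KO-labelled replicates leaned the other way, with replicate 2 above replicate 1 in 12 of 57 antiviral genes against 6880 of all 10071 entries. Without WT replicate 1 the median difference was 0.27 for antiviral genes, 0.34 for GTPases and 0.24 for sensors, and without WT replicate 2 it was 0.56, 0.77 and 0.49. Without KO-labelled replicate 1 the median of the signalling genes was 0.25, and that of all entries was 0.104. The difference between genotypes was thus above 0 with either WT library, and its size depended on which.

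**Figure D2:**
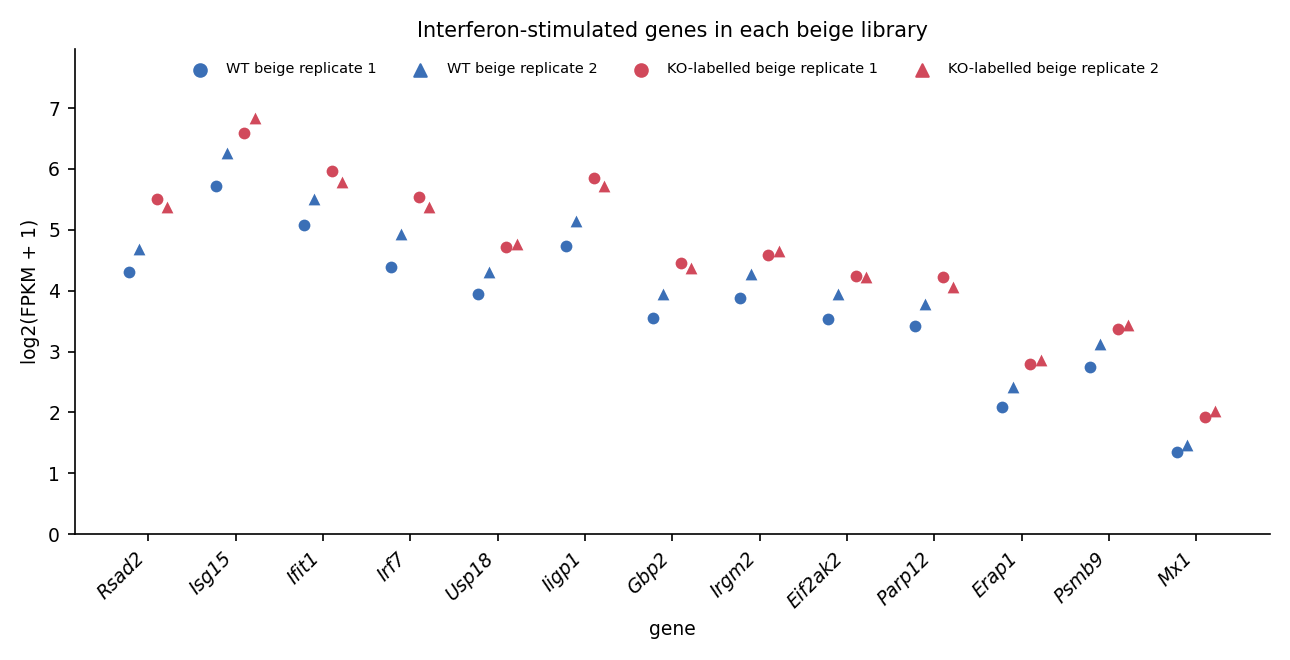
Expression of 13 interferon-stimulated genes as log2(FPKM + 1) in each beige library (blue WT, red KO-labelled; circles replicate 1, triangles replicate 2). In every gene shown both red symbols lie above both blue ones, and the blue triangle lies above the blue circle.

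Thermogenic genes leaned upward, with Cidea as the only call. Of 30 tested brown and beige thermogenic genes, 25 lay above 0 (83.3%, against 63.0% of all entries). Both KO-labelled libraries lay above both WT libraries in 17 (56.7%, against 28.7% of all entries). They lay below both in 3 (10%, against 13.4% of all entries). The median was 0.17, and 1 was called, against 0.0794% of all entries called higher. Cidea (chromosome 18, 67343564 to 67367794) rose from 56.1 and 52.3 to 115 and 89.5 FPKM (0.89 ± 0.13, limma adjusted p = 0.0412). That call held in 3 of 19 alternative settings, with limma adjusted p between 0.00913 and 0.385.

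The uncoupling protein gene itself did not pass. Ucp1 was at 19.1 and 17.2 FPKM in WT against 51.6 and 24.5 FPKM in KO-labelled libraries (0.94 ± 0.26, limma adjusted p = 0.289). The genotypes did not overlap, and the 2 KO-labelled replicates differed from each other by more than the lower of them differed from WT. Without KO-labelled replicate 2, Ucp1 passed (limma adjusted p = 0.00511). For Cox8b, the brown fat isoform of a subunit of cytochrome oxidase, the values were 156 and 183 against 270 and 294 FPKM (0.73 ± 0.11, limma adjusted p = 0.0624). Cox7a1, another such subunit, was at 535 and 460 against 505 and 551 FPKM and overlapped (0.09 ± 0.21).

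Other thermogenic genes lay higher in both KO-labelled libraries, most of all in replicate 2. Otop1, a proton channel of brown fat, was at 5.84 and 5.94 against 9.84 and 13.8 FPKM (0.88 ± 0.15, limma adjusted p = 0.0915). Gyk, a glycerol kinase that lets adipocytes re-esterify glycerol, was at 14.5 and 18.0 against 23.9 and 36.1 FPKM, and Fabp3, a fatty acid carrier of oxidative tissues, at 16.5 and 18.0 against 24.5 and 40.3 FPKM. In these 3 the genotypes were apart and KO-labelled replicate 2 was the highest library. Elovl3, a fatty acid elongase, was at 62.7 and 73.7 against 75.3 and 92.9 FPKM (0.30 ± 0.13), and Fgf21, a hormone of stressed and thermogenic fat, at 6.55 and 8.02 against 8.71 and 12.6 FPKM. Dio2, which activates thyroid hormone, was at 0.0726 FPKM or less in all 4 and was not tested.

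Transcriptional regulators of the thermogenic programme were divided. Of 20 tested, 10 lay above 0 and 10 below (median 0.017), with 0 called. Ppara, a driver of fatty acid oxidation, was at 23.9 and 23.4 against 29.4 and 34.3 FPKM (0.41 ± 0.10), and Ppargc1a, the coactivator of mitochondrial genes, at 6.07 and 6.37 against 7.60 and 9.54 FPKM (0.40 ± 0.13). Prdm16, a coregulator of brown fat identity, was at 1.05 and 1.28 against 1.57 and 1.52 FPKM, and the retinoid receptor Rxrg at 4.16 and 5.40 against 6.31 and 7.66 FPKM. The thyroid hormone receptor Thra went the other way, at 7.79 and 7.83 against 5.72 and 6.41 FPKM (−0.32 ± 0.10). Pparg, the target of rosiglitazone, was at 47.0 and 45.1 against 50.5 and 49.1 FPKM (0.11 ± 0.09).

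Mitochondrial genes lay slightly higher as lists, and 0 of them were called. In fatty acid oxidation 24 of 26 tested members lay above 0 (median 0.24), in the TCA cycle 19 of 20 (0.19), in complex I 33 of 37 (0.15) and among mitochondrial ribosomal proteins 64 of 75 (0.11), against 63.0% of all entries and their median of 0.0495. Cpt1b, which admits fatty acids to mitochondria, was at 73.8 and 74.4 against 88.2 and 111 FPKM (0.41 ± 0.13). Hadhb, of the trifunctional oxidation enzyme, was at 91.0 and 101 against 126 and 127 FPKM (0.39 ± 0.13). Etfa, which passes electrons from oxidation to the respiratory chain, was at 142 and 149 against 177 and 204 FPKM.

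In the TCA cycle, Sucla2, a succinyl-CoA synthetase subunit, was at 92.1 and 93.9 against 115 and 139 FPKM. In the respiratory chain, Ndufab1 of complex I was at 41.3 and 43.1 against 54.9 and 57.0 FPKM (0.40 ± 0.14), the complex III core protein Uqcrc1 at 201 and 191 against 227 and 242 FPKM, and Cox5a of complex IV at 288 and 289 against 328 and 373 FPKM. The genotypes did not overlap in any of these 4, with log2 differences of 0.25 to 0.44. Atp5g3, a ring subunit of ATP synthase, was lower, at 211 and 195 against 139 and 167 FPKM (−0.41 ± 0.14). Mrpl47, of the mitochondrial ribosome, was at 13.1 and 13.7 against 18.1 and 20.9 FPKM, and Sod2, the mitochondrial superoxide dismutase, at 71.5 and 77.9 against 90.5 and 108 FPKM. The chaperonin subunit Hspe1 was at 56.4 and 58.2 against 68.5 and 83.5 FPKM.

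The size of these list differences depended on KO-labelled replicate 2, and so did the median of all entries. Without KO-labelled replicate 2 the median was 0.13 for fatty acid oxidation, 0.10 for the TCA cycle, 0.094 for complex I and 0.061 for mitochondrial ribosomal proteins. It was 0.0029 over all entries in that fit. Without KO-labelled replicate 1 the list medians were 0.36, 0.30, 0.22 and 0.18, and that of all entries was 0.104. After median centring, quantile normalization or removal of small RNA genes, the list medians were 0.16 to 0.19, 0.14, 0.083 to 0.10 and 0.031 to 0.067. The thermogenic median lay between 0.23 and 0.26 with any 1 beige library left out and between 0.12 and 0.18 after these 3 rescalings.

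**Figure D3:**
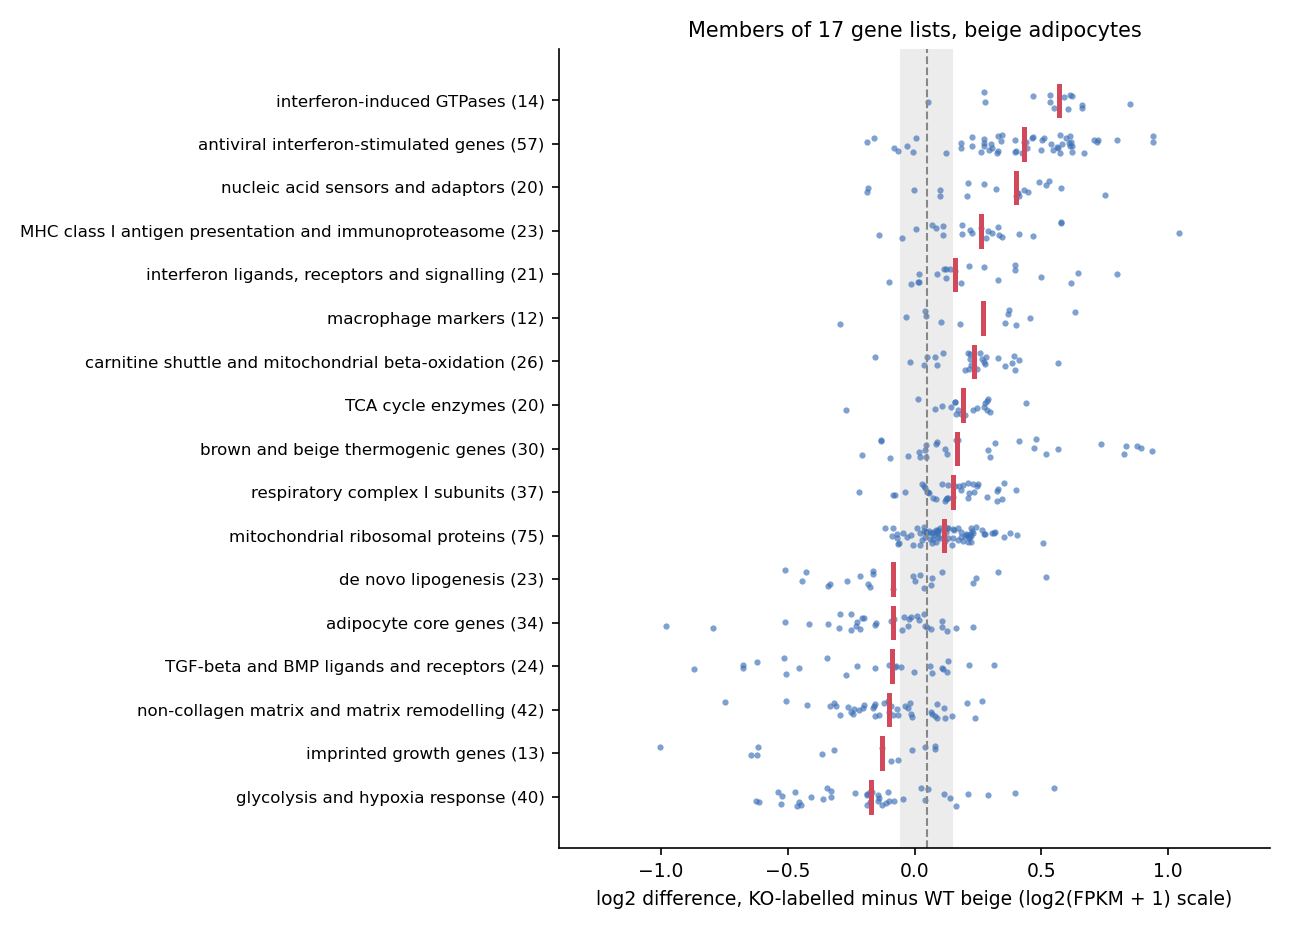
Log2 difference between KO-labelled and WT beige libraries for the tested members of 17 gene lists, with the number of members in parentheses, 1 point per gene and the list median as a red bar. The dashed line and grey band give the median (0.0495) and the middle 50% of all tested entries. The medians of GTPases, antiviral genes and sensors lie well to the right of the band, and those of macrophage markers and antigen presentation less far. Those of interferon signalling and of the thermogenic and mitochondrial lists lie nearer its right edge. Medians of the glycolysis and hypoxia, imprinted, matrix, TGF-β and BMP, adipocyte core and lipogenesis lists lie to its left.

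The sign of the median of the white-selective markers depended on the library left out. Of 15 tested, 5 lay above 0 with a median of −0.059 and 0 called. The median was 0.082 without KO-labelled replicate 1, −0.0072 without WT replicate 2 and −0.17 without KO-labelled replicate 2. Over all entries it was 0.104, 0.045 and 0.0029 in these fits, above that of the list in each. Both KO-labelled libraries lay above both WT libraries in 3 of the 15 (20%, against 28.7% of all entries). They lay below both in 3 (20%, against 13.4% of all entries). The single genes of white fat named here all lay lower, and none of them passed. They do not represent the list, in which 2 members were higher and 3 lower at an unadjusted limma p under 0.05. Retn, which encodes the adipokine resistin, was at 218 and 206 FPKM in WT against 121 and 123 FPKM in KO-labelled libraries (−0.80 ± 0.14, limma adjusted p = 0.111), and Retn passed in 5 of 19 alternative settings. Car3, a carbonic anhydrase abundant in white fat, was at 419 and 301 against 195 and 166 FPKM (−0.98 ± 0.17, limma adjusted p = 0.0949). Agt, angiotensinogen, was at 13.5 and 10.3 against 7.86 and 5.63 FPKM (−0.74 ± 0.18). In all 3 the KO-labelled libraries lay below both WT libraries. Slc7a10, an amino acid transporter of the white adipocyte surface, was at 9.15 and 8.33 against 6.61 and 6.03 FPKM.

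Of 34 tested adipocyte core genes, 11 lay above 0 and in 15 both KO-labelled libraries lay below both WT libraries (44.1%, against 13.4% of all entries). The median was −0.087, and −0.016 without KO-labelled replicate 1 and −0.21 without KO-labelled replicate 2. Over all entries it was 0.104 and 0.0029 in these fits. Adipoq, the adipokine adiponectin, was at 518 and 506 against 424 and 468 FPKM (−0.20 ± 0.11), and the master regulator Cebpa at 104 and 105 against 85.5 and 102 FPKM. Plin4, a lipid droplet coat protein, was at 80.2 and 76.2 against 64.5 and 53.4 FPKM, and Ces1d, a triglyceride hydrolase, at 32.4 and 35.3 against 23.5 and 23.9 FPKM. In de novo lipogenesis 10 of 23 lay above 0 (median −0.086, and −0.17 without WT replicate 2 and −0.13 without KO-labelled replicate 2). The KO-labelled libraries lay below both WT libraries in 10 (43.5%, against 13.4% of all entries). They lay above both in 6 (26.1%, against 28.7% of all entries). Fasn, the fatty acid synthase, was at 155 and 135 against 103 and 99.3 FPKM (−0.51 ± 0.12, limma adjusted p = 0.206). Acss2, which makes acetyl-CoA from acetate, was at 71.9 and 66.1 against 57.0 and 44.5 FPKM, and Slc25a1, the citrate exporter of mitochondria, at 103 and 93.7 against 75.4 and 70.1 FPKM. The fatty acid transport protein Slc27a1 was at 30.1 and 24.2 against 16.7 and 18.8 FPKM, while Acsl4, which activates long polyunsaturated fatty acids, was higher, at 17.4 and 18.3 against 22.5 and 27.1 FPKM.

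Glycolytic and hypoxia genes had a list median of −0.17, with 10 of 40 above 0 and 0 called. Only the epithelial and mammary markers, with 2 tested, had a lower median (−0.75). Pfkm, a phosphofructokinase, was at 7.83 and 6.77 against 5.49 and 4.69 FPKM (−0.45 ± 0.11), and Pfkfb3, which makes its activator, at 91.3 and 83.3 against 71.9 and 59.6 FPKM. Hexokinase 2 (Hk2) was at 33.8 and 30.4 against 26.9 and 15.8 FPKM, so KO-labelled replicate 2 was far the lowest. The lactate transporter Slc16a1 was at 67.0 and 70.7 against 98.9 and 103 FPKM (0.55 ± 0.10, limma adjusted p = 0.115), and Ldhb, the lactate dehydrogenase isoform of oxidative tissues, at 57.8 and 54.9 against 76.4 and 72.5 FPKM. The list median was −0.002 without KO-labelled replicate 2, −0.31 without KO-labelled replicate 1 and −0.10 without WT replicate 1, so the lower level of the list came with 1 library.

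**Figure D4:**
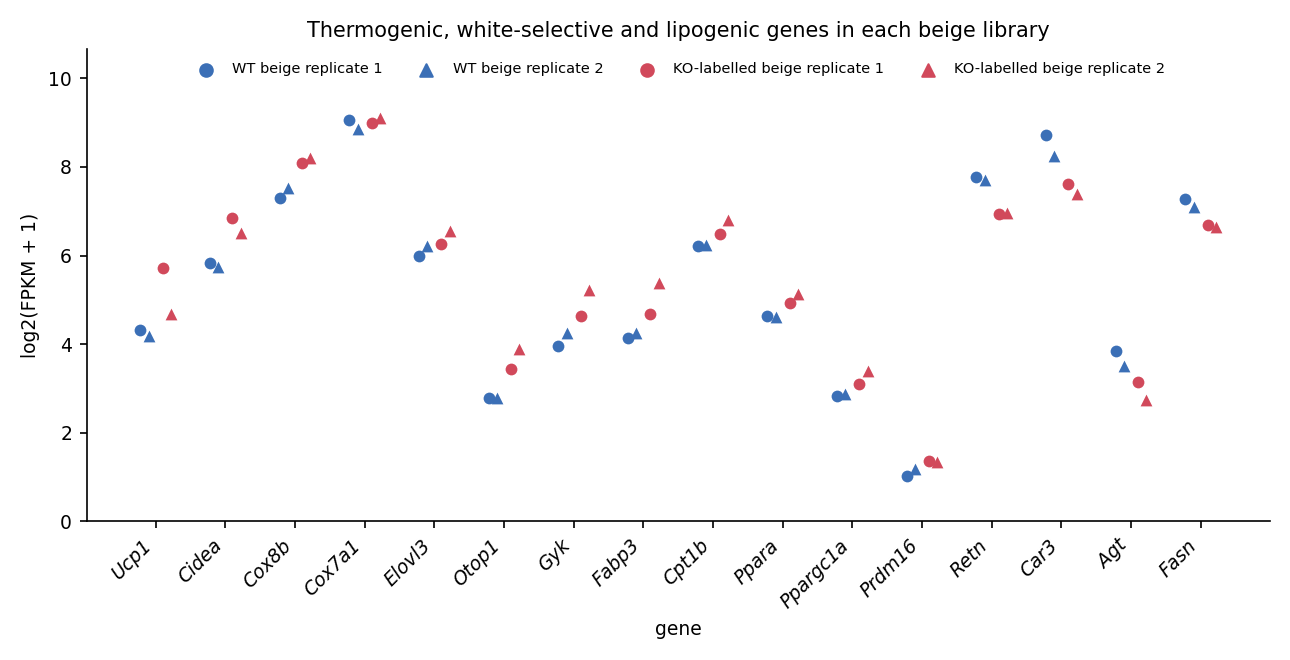
Expression of 12 thermogenic genes and of Retn, Car3, Agt and Fasn as log2(FPKM + 1) in each beige library (blue WT, red KO-labelled; circles replicate 1, triangles replicate 2). Ucp1 shows the widest gap between KO-labelled replicates, Cox7a1 overlaps, and the last 4 genes have both red symbols below both blue ones.

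Secreted and stromal genes went both ways. Lcn2, lipocalin 2, was at 1.71 and 3.93 against 7.37 and 11.3 FPKM (1.47 ± 0.26, limma adjusted p = 0.111), with the WT replicates also apart from each other. Serpina3n, an acute phase protease inhibitor, was at 21.0 and 20.2 against 31.0 and 35.7 FPKM, complement C3 at 20.1 and 18.7 against 25.5 and 26.1 FPKM and the metalloreductase Steap4 at 67.1 and 80.6 against 98.3 and 112 FPKM. Pla1a, a secreted phospholipase, was at 18.1 and 21.0 against 31.4 and 41.6 FPKM (0.86 ± 0.14, limma adjusted p = 0.0725). The chemokine Ccl11 was lower, at 2.34 and 1.71 against 0.847 and 0.912 FPKM, as was Ccl7, at 10.7 and 10.7 against 6.31 and 7.67 FPKM, while Ccl2 was at 2.63 and 1.97 against 3.03 and 3.44 FPKM. The list of chemokines and cytokines had 6 of 12 tested members above 0.

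Matrix and growth factor lists had medians below 0, by an amount that depended on the library. Of 42 tested non-collagen matrix genes 11 lay above 0 (median −0.10, and −0.065 without KO-labelled replicate 1), and 1, Mgp, was called, against 0.109% of all entries called lower. In the list of TGF-β and BMP ligands and receptors 8 of 24 lay above 0 (median −0.088, −0.039 without KO-labelled replicate 1 and −0.14 without KO-labelled replicate 2), with 0 called. Of 18 tested collagens 8 lay above 0 and 0 were called. Their median of −0.084 was 0.039 without KO-labelled replicate 1 and −0.22 without KO-labelled replicate 2. Over all entries the median was 0.104 and 0.0029 in these fits, above that of the collagens in both. Thbs1, thrombospondin 1, was at 176 and 152 against 125 and 105 FPKM (−0.51 ± 0.15), and Col12a1 at 17.2 and 14.6 against 12.3 and 9.61 FPKM. The BMP antagonist Grem1 was at 7.87 and 6.74 against 5.79 and 2.03 FPKM, with KO-labelled replicate 2 lowest. Nrn1, a neuritin also found outside neurons, was at 19.7 and 13.7 against 8.42 and 5.37 FPKM (−1.17 ± 0.20, limma adjusted p = 0.0986), and the small heat shock protein Cryab at 13.2 and 9.11 against 6.51 and 3.88 FPKM.

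Imprinted growth genes, which are expressed from 1 parental copy, had 3 of 13 above 0 (median −0.13, and −0.24 without KO-labelled replicate 1) and 0 called. H19 was at 13.7 and 11.1 against 7.12 and 4.43 FPKM (−1.004 ± 0.19, limma adjusted p = 0.117), Peg3 at 1.81 and 1.58 against 0.861 and 0.653 FPKM and Meg3 at 5.69 and 3.71 against 2.72 and 2.60 FPKM. All 3 were lower in both KO-labelled libraries. These genes are also high in undifferentiated stromal cells, and of 19 tested preadipocyte and stromal markers 7 lay above 0 (median −0.10, and −0.022 without KO-labelled replicate 2). Both KO-labelled libraries lay above both WT libraries in 4 of the 19 (21.1%, against 28.7% of all entries). They lay below both in 8 (42.1%, against 13.4% of all entries). Gpc3 was at 11.4 and 7.97 against 6.39 and 5.21 FPKM and Sfrp1 at 17.3 and 12.04 against 11.2 and 9.91 FPKM, while Pdgfra overlapped, at 8.21 and 7.94 against 6.27 and 8.54 FPKM. The summed level of the 25 listed stromal markers was 712 and 627 FPKM in WT against 670 and 574 FPKM in KO-labelled libraries, which overlapped. In bulk RNA, fewer cells of a type and less RNA per cell cannot be told apart.

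Markers of other cell types were given the same reading, since immune cells respond to interferon as well. Of 24 listed macrophage markers, 11 to 14 were below 1 FPKM in each beige library, and their summed level was 40.5 and 39.1 FPKM in WT against 52.2 and 42.4 FPKM in KO-labelled libraries, against 602 to 959 FPKM in the white cultures. Of 12 tested, 10 lay above 0 (median 0.27; 0.11 without WT replicate 1). Lysozyme (Lyz2) was at 9.47 and 7.59 against 8.36 and 5.39 FPKM and overlapped, and Adgre1, which encodes F4/80, was at 1.39 and 1.01 against 1.42 and 1.30 FPKM. Ctss, a cathepsin that adipocytes also express, was at 6.97 and 5.32 against 12.1 and 8.26 FPKM, and Mpeg1 at 1.88 and 1.94 against 3.31 and 2.69 FPKM. The part of macrophages in the interferon difference was not tested. Lymphoid and mast cell markers summed to 0.271 to 0.614 FPKM in all, and endothelial markers to 3.67 to 4.01 FPKM. The 11 pericyte and smooth muscle markers summed to 93.6 and 88.9 FPKM in WT against 96.4 and 128 FPKM in KO-labelled libraries, of which Acta2, an actin of contractile cells and fibroblasts, made 31.8 and 33.8 against 34.9 and 51.8 FPKM, while Rgs5 was at 0 in all 4. Among them Cspg4 was higher (7.24 and 8.39 against 12.2 and 13.2 FPKM) and Mcam lower (5.34 and 5.22 against 3.58 and 3.16 FPKM), and neither passed.

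Control genes set a scale for these values. Actb was at 485 and 490 against 516 and 546 FPKM, and Tbp at 3.16 and 2.63 against 2.30 and 3.14 FPKM. Gapdh, which is glycolytic and has many pseudogenes that can share its reads, was at 142 and 117 against 105 and 76.3 FPKM. Of 15 tested housekeeping controls, 0 were called, and their median was 0.012.

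The 7 called entries listed at exactly 0 in both libraries of 1 genotype are given as listed, with no fold change, because an exact 0 may be a failed estimate. Nothing more than the listing is read from these calls. Listed at 0 in WT were Rnf146, a ubiquitin ligase of Wnt signalling (16.5 and 12.95 FPKM in KO-labelled libraries), Wdr77, a methylosome subunit (6.16 and 7.35), Lrsam1, a ubiquitin ligase (1.69 and 1.56), and Lrrc24 (1.87 and 1.90). Listed at 0 in KO-labelled libraries were Gp1bb, a platelet glycoprotein subunit (1.77 and 1.87 FPKM in WT), Ccdc66 (1.32 and 1.45) and 1190005I06Rik (7.21 and 7.61). Rnf146, Wdr77, Lrsam1, Gp1bb and Ccdc66 were above 1 FPKM in all 4 white libraries, including those of the genotype listed at 0 here. Each of the 7 overlapped another entry in position, which held for 2158 of 10071 tested entries (21.4%) and for 4 of the other 12 called. Rnf146 adjoins Echdc1 (158 and 156 against 130 and 143 FPKM) and Wdr77 adjoins Atp5f1 (104 and 104 against 98.8 and 115 FPKM). Whether fragments of the 7 were assigned to their neighbours was not tested.

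The same genotypes were compared in white cultures, to see which differences were shared. Of the same 10071 entries, 87 (0.864%) were called between KO-labelled and WT white libraries, and the difference between the beige and the white comparison passed for 18 (0.179%). Lars2 was 1 of them: it was lower in KO-labelled beige cultures and higher in KO-labelled white ones, at 17.8 and 21.4 FPKM in WT against 42.6 and 35.5 FPKM (0.96 ± 0.13, limma adjusted p = 0.018; difference between cultures, limma adjusted p = 0.000292). Rn45s in white cultures was at 5239 and 6619 against 6555 and 6505 FPKM. Mgp (60.4 and 52.4 against 29.8 and 30.5 FPKM), B3galt2, Sbsn and Cntfr were also called in white cultures in the direction they had in beige, with log2 differences of −0.88, −0.55, −0.85 and 0.85. Nrp2 was at 5.73 and 5.26 against 7.94 and 8.10 FPKM there (limma adjusted p = 0.055).

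Rasd1, Adh1 and Snhg11 were called in beige and not in white, with white differences of −0.06, −0.15 and −0.19, and the difference between cultures did not pass for them (limma adjusted p from 0.11 to 0.16). Cyp4b1 was low in white cultures, at 0.448 and 0.567 FPKM in WT against 0.920 and 1.18 FPKM in KO-labelled libraries. Its genotypes did not overlap there, and it was not called (0.44 ± 0.27, limma adjusted p = 0.42). Cidea was at 0.169 FPKM or less in white cultures, where little difference could be seen. For Cyp4b1 and Cidea the difference between cultures did not pass either (limma adjusted p = 0.16 and 0.15). In the interferon lists the median difference in white was 0.44 for antiviral genes and 0.48 for GTPases, close to the 0.43 and 0.57 in beige. Macrophage markers had a median of 0.71 in white. The medians of thermogenic genes, fatty acid oxidation and glycolysis in white were −0.0046, −0.078 and 0.25, and no test of a list between cultures was made. Slc7a10 was listed at 0 in both KO-labelled white libraries (8.19 and 6.11 FPKM in WT).

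**Figure D5:**
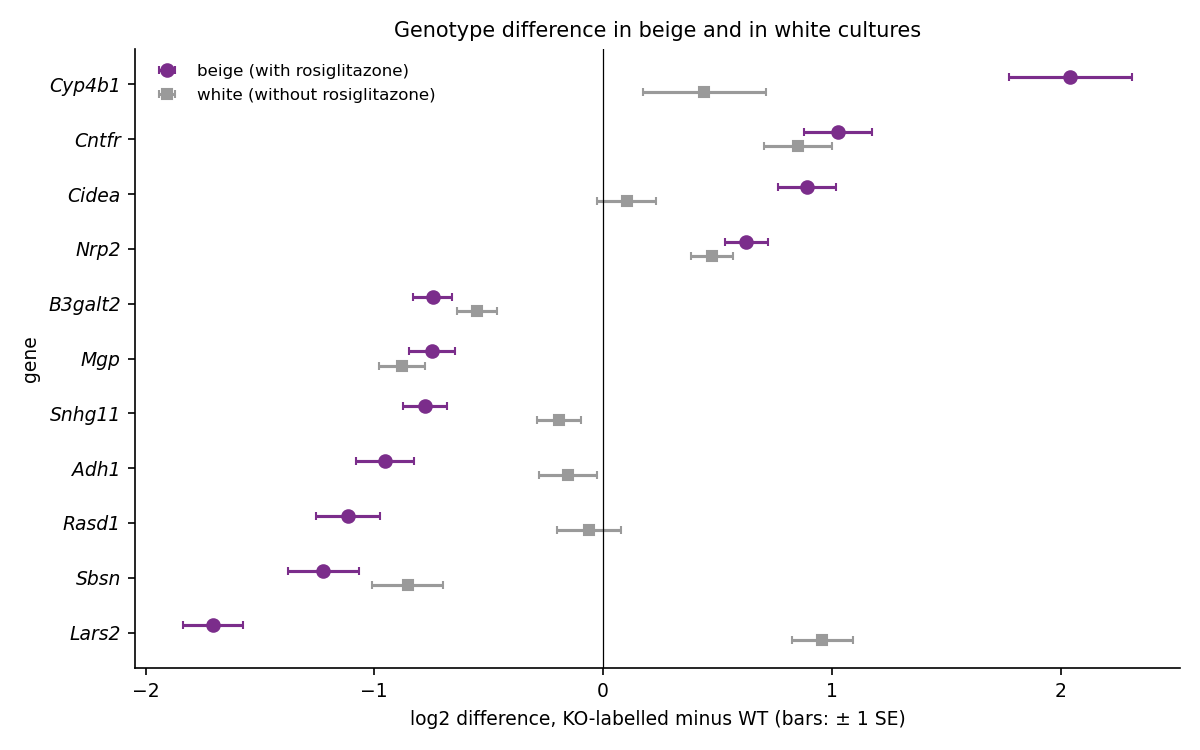
Log2 difference between KO-labelled and WT libraries, ± 1 SE, for the 11 named called genes with values above 0 in both genotypes, in beige (circles) and white (squares) cultures, 2 libraries per group. Lars2 changes side between the cultures, while Cntfr, Nrp2, B3galt2, Mgp and Sbsn lie on the same side in both.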

How the data were processed

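RNA of cultured adipocytes was depleted of ribosomal RNA and read as 2 × 36 bases from directional libraries, per the labels' protocols. The authors deposited FPKM values, 1 file per library, per the file headers. Coordinates are on mm10 (GRCm38), per the submitters' processing notes. Not given in the sources used here are aligner, quantifier and annotation. Values are FPKM and not counts, so no count model was used. The 8 libraries of primary cultures were fitted on log2(FPKM + 1) with limma 3.58.1 (eBayes with trend, R 4.3.3), 1 coefficient per group and 4 residual degrees of freedom, for entries with at least 1 FPKM in 2 or more of the 4 beige libraries. Tests were two-sided with Benjamini-Hochberg adjustment over all 10071 entries, and log2 differences on this scale understate the change of low genes. 

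The 61 gene lists had 1510 memberships, of which 1492 matched by symbol and 4 by a synonym. The members and lists were chosen with earlier results of these data known, so lists are described by counts and medians with no test. Named genes were the called ones with groups that do not overlap (up to 15 in each direction), the members with the lowest p in each list (up to 4), the 12 largest differences in each direction among well-expressed entries, entries at 0 in 1 genotype and at least 5 FPKM in the other, and a fixed set of genes; predicted genes, pseudogenes and small RNA genes were left out of the rankings. Cell type markers are a further fixed set. Promoters came from RefSeq (GRCm38.p6). Alternatives were 2 other pseudocounts, 2 other filters, 2 other sets of libraries, 3 scalings, no trend, a replicate block and each of 8 libraries left out. Some chosen genes are not reported here. Figures were drawn with matplotlib.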

Additional observations from a re-analysis of the deposited data

Results flagged for a closer look

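The test of the difference between the genotype effects in beige and in white cultures (limma, adjusted over 10071 entries) passed in 8 named genes, of which Lars2 had values above 0 in all 8 libraries. Lars2 was lower in KO-labelled beige and higher in KO-labelled white libraries (adjusted p = 0.000292). Slc7a10 was listed at 0 in both KO-labelled white libraries, whereas the KO-labelled beige ones had 6.61 and 6.03 FPKM (adjusted p = 0.000292). The other 6 are entries listed at 0 in a whole beige genotype, which passed the filter through the other genotype alone. Their fitted difference depends on the pseudocount, so these values describe the listing and are not read as a difference between cultures: 1190005I06Rik (adjusted p = 7.36e-05), Rnf146 (7.13e-05), Wdr77 (5.06e-05), Gp1bb (0.00583), Ccdc66 (0.00623) and Lrsam1 (0.00898). 1190005I06Rik was listed at 0 in all 4 white libraries as well.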

How the results depend on the processing

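The number of calls between genotypes in beige cultures was 19, and 11 with a filter on the mean FPKM. That filter kept 9988 entries and left out the called entries Gp1bb, Ccdc66, Lrsam1, Lrrc24 and Cntfr. The number of calls was 48 with all 12 libraries in the fit, where more libraries estimate the spread. With 1 library left out it lay between 6 (without WT beige replicate 1) and 27 (without KO-labelled beige replicate 1), with 11 without WT beige replicate 2 and 12 without KO-labelled beige replicate 2; in such fits the lone library of a genotype is assumed to vary like the other groups. The number of entries whose difference was not the same in beige and white was 18, and 8 with the filter on the mean, 80 with all 12 libraries and 31 without small RNA genes, and between 10 and 36 with 1 library left out; with the 4 beige libraries alone it could not be fitted. The causes of these shifts beyond the entries and libraries included were not tested.

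Same-numbered WT and KO-labelled libraries share only a number: their deviations from the group means correlated at 0.159 in beige and 0.155 in white, with 2 numbers only. With the replicate block 24 entries were called, 10 higher and 14 lower, and 16 differed between cultures. Cox8b, Pla1a, Nrn1, H19 and Lcn2 were not called and passed with the block, and each also in 2 or 3 other alternatives. Among the calls Nrp2, Cidea, Cntfr and Mgp were the least stable (called in 1, 3, 9 and 9 alternatives; Cntfr could be tested in 18). Lars2, Rnf146, Wdr77 and 1190005I06Rik passed in all 19.

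The 125 genes named were recomputed in 2369 combinations of gene and setting, of which 94 lost and 40 gained a call. A sign turned in 10, all in genes that were not called: Rn45s (0.070 after quantile normalization), Ehmt1 (−0.0051 after quantile normalization, −0.011 after median centring, −0.0071 with small RNA genes removed, and −0.11 to 0.18 with 1 library left out), and, with 1 library left out, Pdgfra (−0.32 to 0.072), Atf7 (−0.093 to 0.020), Tbp (−0.23 to 0.091, and 0.028 without WT replicate 1) and Cox7a1 (−0.021 to 0.20). Precision is limited by 2 libraries per genotype and by read totals that were not analysed here.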
